A study of Mus musculus with 8 samples.

Results

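DNA methylation was followed at 45 genes of axon guidance and Eph-ephrin signalling in mouse proximal colon organoids. They were taken by name, of 21900 protein-coding RefSeq genes, from a list drawn up with earlier results of these data known. They are 8 ephrins, 14 Eph receptors (9 EphA and 5 EphB), 11 semaphorins (7 of class 3 and 4 of class 6), and 12 genes of the Slit, Robo, netrin, Unc5 and Dcc group. For each gene, every 200 bp tile that touched its span in the mouse build GRCm38, or the 2 kb on either side, was taken from the authors' tables of changed tiles. These held 314 distinct tiles at 42 of the 45 genes; Efna1, Epha1 and Sema3c had none.

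Ephrins are ligands held on the cell surface, and Eph receptors are receptor tyrosine kinases that bind them on touching cells and signal in both directions. In the intestinal crypt, EphB2 and EphB3 are known Wnt target genes whose products, with ephrin-B ligands, keep stem and differentiated cells in their places. Semaphorins, Slits and netrins are guidance cues read by plexins and neuropilins, by Robo receptors, and by Dcc and Unc5 receptors. Dcc was named for its deletion in colorectal cancer, and several of these genes are known as targets of promoter methylation in tumours. Methylation of a CpG-rich start is commonly found at genes that are silent, while methylation inside a gene is common at active genes. The tables hold methylation differences alone, so neither expression nor the labelled tissue was checked.

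All organoids came from male mice about 40 days old that were heterozygous for a Cre-activable BrafV600E allele (Braf+/LSL), an activated form of the BRAF kinase, and were grown from crypts of the first 2.5 cm of the colon. Organoid line 1 and organoid line 3 each gave 1 library to each of 4 groups. In the BrafV600E group, lentiviral Cre had switched the oncogene on and the organoids, at 5 months, were grown in Base medium, from which niche factors of stem cells are left out. Its control group received the lentiviral backbone without Cre (empty vector, EV) and stayed in full medium, also at 5 months. The long-culture group is EV organoids in full medium for 12 months (line 1) or 14 months (line 3), and its control is EV organoids at 2 months. A final 3 weeks of culture is labelled for all 8 libraries. The oncogene and the medium changed together and cannot be told apart. In the long-culture group, line and culture time (12 or 14 months) differ together and cannot be told apart either. The line 1 BrafV600E library names line 3 in another label, and the 14-month library carries a 2-month label; titles were followed. Methylation was read by reduced representation bisulfite sequencing, which covers CpG-rich fragments.

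Each table compares 1 library with 1 library of the same line, so no gene has a replicate within a line. The 2 lines give 2 differences per comparison only at tiles listed in both, which passed the threshold in each, and no test over samples was run; all results are descriptions. A tile is called gained or lost here when the authors listed it, which they did for a q-value up to 0.01 and a difference of 20 percentage points or more. Read depth per tile is unknown. A tile that is not listed may be unchanged or not covered, and the methylation level of either library is unknown. Over the whole genome, 67.5% of 15305 listed tiles gained with BrafV600E in line 1 and 40.4% of 29949 in line 3. With long culture 40.9% of 8263 gained in line 1 and 71.9% of 21524 in line 3.

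Promoter sequences of 6 genes are shown because tiles within 1 kb of their start were listed with the same sign in both lines of a comparison. They are from RefSeq (GRCm38.p6), from 250 bases before to 50 after the start, 5′ to 3′. Each CpG, a site that can be methylated, is in capitals. Slit3 (chr11:35121206-35121505, plus strand) holds 41 CpGs, Epha5 (chr5:84417333-84417632, minus strand) 30, Epha7 (chr4:28812881-28813180, plus strand) 28, Robo3 (chr9:37433126-37433425, minus strand) 17, Ephb1 (chr9:102354644-102354943, minus strand) 14 and Sema3e (chr5:14025026-14025325, plus strand) 11. Slit3 is shown for gains with BrafV600E, Epha5, Robo3 and Ephb1 for gains with long culture, Epha7 for losses with BrafV600E and Sema3e for losses with long culture. Near the Epha7 start line 1 also had 1 gain with BrafV600E beside its 2 losses. No listed tile overlaps the Ephb1 or the Sema3e sequence shown. Their nearest listed tiles, chr9:102354401-102354600 and chr5:14025601-14025800, lie downstream of it, so no change was read at the CpGs printed for these 2 genes.
Slit3: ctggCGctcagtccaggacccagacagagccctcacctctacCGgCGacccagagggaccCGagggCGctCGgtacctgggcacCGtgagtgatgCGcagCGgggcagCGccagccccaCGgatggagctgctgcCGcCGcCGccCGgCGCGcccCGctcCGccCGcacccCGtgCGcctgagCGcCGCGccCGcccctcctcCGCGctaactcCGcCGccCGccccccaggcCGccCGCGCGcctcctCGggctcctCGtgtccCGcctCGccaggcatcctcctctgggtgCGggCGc
Epha5: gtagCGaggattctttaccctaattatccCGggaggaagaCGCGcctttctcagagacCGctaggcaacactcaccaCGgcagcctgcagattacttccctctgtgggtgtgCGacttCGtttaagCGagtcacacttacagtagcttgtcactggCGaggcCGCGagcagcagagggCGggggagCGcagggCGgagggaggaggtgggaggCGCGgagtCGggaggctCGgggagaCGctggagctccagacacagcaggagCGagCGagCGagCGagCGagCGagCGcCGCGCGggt
Epha7: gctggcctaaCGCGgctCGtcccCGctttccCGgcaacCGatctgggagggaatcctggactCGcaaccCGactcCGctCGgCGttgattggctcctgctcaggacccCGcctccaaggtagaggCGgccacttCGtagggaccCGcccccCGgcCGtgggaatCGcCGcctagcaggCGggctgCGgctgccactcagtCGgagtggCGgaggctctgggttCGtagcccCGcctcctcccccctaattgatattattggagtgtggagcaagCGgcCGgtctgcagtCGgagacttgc
Robo3: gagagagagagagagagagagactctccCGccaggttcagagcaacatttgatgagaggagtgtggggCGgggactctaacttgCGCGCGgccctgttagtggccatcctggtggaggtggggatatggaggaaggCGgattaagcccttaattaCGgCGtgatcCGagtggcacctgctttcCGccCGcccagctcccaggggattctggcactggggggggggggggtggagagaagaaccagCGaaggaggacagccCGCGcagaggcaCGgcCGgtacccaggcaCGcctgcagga
Ephb1: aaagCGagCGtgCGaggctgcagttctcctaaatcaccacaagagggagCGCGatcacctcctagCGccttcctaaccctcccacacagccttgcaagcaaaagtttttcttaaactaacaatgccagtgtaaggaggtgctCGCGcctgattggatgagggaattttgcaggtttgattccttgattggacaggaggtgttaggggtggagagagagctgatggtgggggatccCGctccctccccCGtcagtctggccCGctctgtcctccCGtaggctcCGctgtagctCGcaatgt
Sema3e: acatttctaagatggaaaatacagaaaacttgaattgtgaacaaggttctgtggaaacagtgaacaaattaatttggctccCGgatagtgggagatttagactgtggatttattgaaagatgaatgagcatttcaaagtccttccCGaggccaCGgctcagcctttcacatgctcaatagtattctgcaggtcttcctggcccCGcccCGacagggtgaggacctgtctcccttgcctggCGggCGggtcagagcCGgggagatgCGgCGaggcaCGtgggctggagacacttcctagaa

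RefSeq promoters matched 37 of the 45 genes. Efnb3, Sema3b, Sema3f, Sema6a, Slit1, Ntn1, Unc5d and Dcc are named without one. Over the 45 promoters of these 37 genes the median was 18 CpGs in 300 bases, against 13 over 21263 promoters of protein-coding genes. The 22 promoters with a listed tile within 1 kb of their start had a median of 22 CpGs and the other 23 a median of 14. The motif CCGG, which reads the same on both strands and is where the enzyme usually used for this method cuts, was found in 82.2% of member promoters and in 62.2% of all promoters. The enzyme is not given in the sources used here.

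Most of these genes had at least 1 listed tile. With BrafV600E, 29 of 45 had one in line 1 (64.4%, against 23.8% of all genes) and 36 in line 3 (80%, against 32.4%). With long culture the counts were 22 in line 1 (48.9%, against 16.6%) and 34 in line 3 (75.6%, against 27.0%). The members are long genes, with a median span of 69.0 kb against 17.1 kb, and a longer gene holds more tiles. Among spans under 50 kb, 10 of 21 members were listed with BrafV600E in line 1 (47.6%, against 17.9% of all genes of that length) and 14 in line 3 (66.7%, against 25.6%). Among spans over 200 kb, 11 of 14 members were listed in line 1 (78.6%, against 68.3%) and 13 in line 3 (92.9%, against 79.5%). For long culture the shares under 50 kb were 28.6% against 12.1% in line 1 and 66.7% against 20.8% in line 3. These are descriptions; CpG content and coverage also differ between genes and their part was not tested.

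**Figure D1:**
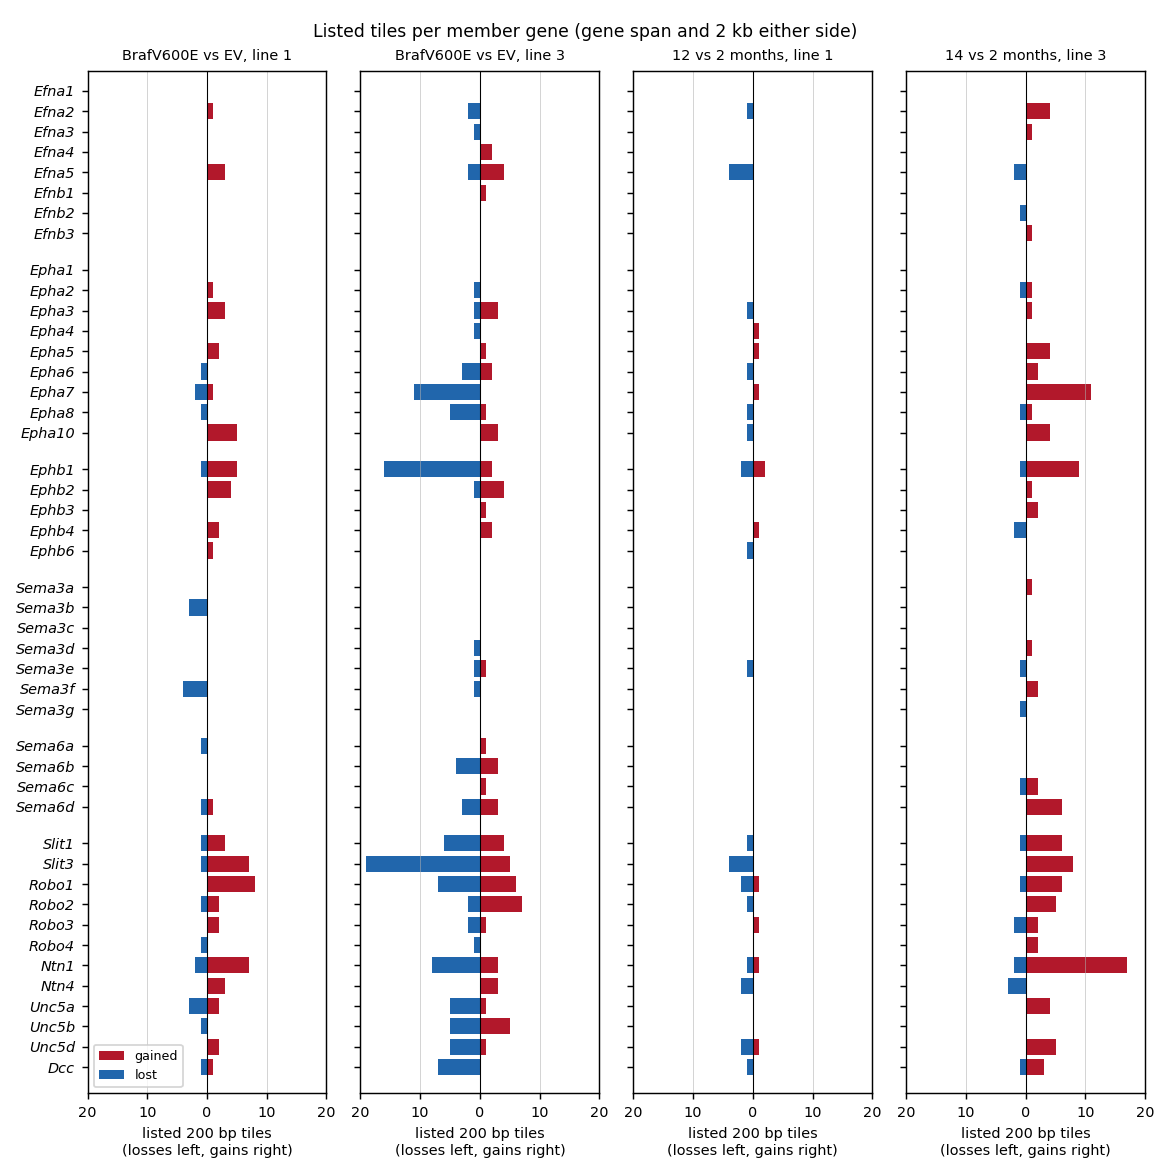
Number of listed 200 bp tiles per gene in the 4 within-line comparisons, with losses drawn to the left of 0 and gains to the right; genes are grouped as ephrins, EphA, EphB, class 3 semaphorins, class 6 semaphorins and the Slit, Robo and netrin group. Slit3 and Ephb1 have the longest loss bars with BrafV600E in line 3 (19 and 16 tiles), and Ntn1 and Epha7 the longest gain bars at 14 months (17 and 11 tiles).

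The direction of change followed the line and the comparison. With BrafV600E, 66 of 91 member tiles gained in line 1 (72.5%, with an exact 95% interval from 62.2 to 81.4), and line 3 gained at 71 of 192 (37.0%, 30.1 to 44.2). With long culture 10 of 37 gained in line 1 (27.0%, 13.8 to 44.1) and 112 of 133 in line 3 (84.2%, 76.9 to 90.0). The genome-wide shares above lie inside the interval in the first 3 tables and below it in line 3 with long culture. With tiles within 500 bp merged, the share there was 73.7% of 76 in place of 84.2% of 133. Over all protein-coding genes, counting a tile for each gene it touched, the gained shares were 71.8%, 47.9%, 47.8% and 78.4%. These lie inside the interval in line 1 with BrafV600E and in line 3 with long culture, and above it in the other 2 tables. Intervals cover counting error only, and neighbouring tiles are not independent.

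By gene, with BrafV600E in line 1, 13 members had gains only (13.3% of all genes did), 7 losses only (6.00%) and 9 both (4.53%). In line 3 there were 9 with gains only (12.1%), 9 with losses only (11.5%) and 18 with both (8.83%). The share with both there rose with gene length. It was 14.3% of members under 50 kb (4.93% of all genes of that length), 50% from 50 to 200 kb (17.4%) and 71.4% over 200 kb (41.4%). With long culture, 5 members had gains only in line 1 (5.74%), 13 losses only (8.05%) and 4 both (2.81%). In line 3, 19 had gains only (14.8%), 6 losses only (6.70%) and 9 both (5.49%).

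Few members kept 1 direction in both lines. With BrafV600E, 4 had gains only in both lines (Epha5, Epha10, Ephb4 and Ntn4; 4.31% of all genes did) and 2 had losses only (Robo4 and Sema3f; 1.69%). Opposite calls were made in the lines for 3 members (3.32% of all genes): Efna2, Epha2 and Sema6a. With long culture, 2 had gains only in both lines (Epha5 and Epha7; 3.03%) and 3 had losses only (Efna5, Ntn4 and Sema3e; 1.16%). Here 7 members had opposite calls (3.02%): Efna2, Epha3, Epha6, Epha10, Ephb4, Robo2 and Slit3. Epha5 had gains and no loss in all 4 tables. Ntn4 gained in both lines with BrafV600E and lost in both with long culture.

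Of the 8 ephrin genes, 2 were listed with BrafV600E in line 1 (25%, against 23.8% of all genes) and 5 in line 3 (62.5%, against 32.4%). With long culture 2 were listed in line 1 (25%, against 16.6%) and 5 in line 3 (62.5%, against 27.0%). Efna5 encodes a lipid-anchored ligand of EphA receptors. With BrafV600E in the authors' deposited tables it had 3 gains in line 1, from 36.3 to 70 points, and in line 3 it had 4 gains with a mean of 49.2 points and 2 losses with a mean of -53.3 points. The gains lay inside the gene and the losses within 2 kb of its start. With long culture, 4 neighbouring tiles just downstream of the start had differences from -23.8 to -41.0 points (mean -33.4) in line 1 in the authors' deposited tables, and in line 3 there were 2 losses, of -52.2 and -100 points. The tile chr17:62879601-62879800 was lost in 3 tables, at -68.2 points with BrafV600E in line 3 and at -41.0 and -52.2 points with long culture in lines 1 and 3, per the authors' deposited tables.

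Efna2, another EphA ligand, had opposite calls in the 2 lines in both comparisons. The BrafV600E calls came from different tiles, while with long culture chr10:80190601-80190800 was listed in both lines with opposite signs. With BrafV600E the authors' deposited tables give 1 gain of 47.6 points in line 1 and 2 losses of -47.2 and -39.9 points in line 3. With long culture they give 1 loss of -31.6 points in line 1 and 4 gains from 30.4 to 50.2 points in line 3, by the authors' deposited tables. Of the 5 tiles, 3 lay just beyond the far end of the gene, and the losses and gains of line 3 met at chr10:80190601-80190800, at -39.9 points with BrafV600E and 30.4 points at 14 months, by the authors' deposited tables. The other listed ephrin genes had 1 or 2 tiles each. Efna4 gained 75.5 and 100 points at 2 tiles with BrafV600E in line 3, and Efnb1, on the X chromosome, gained 82.1 points at 1 tile there, by the authors' deposited tables. Efnb2, whose product is a ligand of EphB receptors, had 1 loss, of -60.4 points at 14 months, and Efnb3 1 gain, of 42.4 points at 14 months, by the authors' deposited tables. Efna3 had -40.8 points with BrafV600E and 34.9 points at 14 months at the same line 3 tile, by the authors' deposited tables.

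Of the 9 EphA receptor genes, Epha7 had the longest run of neighbouring changed tiles. With BrafV600E, line 3 lost methylation at 11 tiles, 5 within 1 kb of the start and 6 further inside the gene. Their differences ran from -21.3 to -65.2 points with a mean of -38.0, by the authors' deposited tables. In long culture the same line gained at 11 tiles, 6 within 1 kb of the start and 5 further inside. These gains ran from 29.5 to 58.2 points with a mean of 43.7, by the authors' deposited tables. The gains formed a single run of 3200 bp (chr4:28812601-28815800), and 9 tiles were listed in both tables, all 9 with opposite signs. The BrafV600E and the long-culture tables of line 3 use different control libraries. In line 1 the response was small and mixed, with 1 gain of 25.4 points and 2 losses of -20.3 and -24.5 points with BrafV600E and 1 gain of 30.0 points at 12 months, by the authors' deposited tables. Line 3 thus held 22 of the 26 Epha7 listings.

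Epha5 gained in every table. With BrafV600E it had 44.5 and 44.2 points at 2 tiles in line 1 and 28.3 points at 1 tile in line 3, by the authors' deposited tables. In long culture it had 23.9 points at 1 tile in line 1 and 34.4 to 71.0 points at 4 tiles in line 3, by the authors' deposited tables. The tile chr5:84417201-84417400, which covers the start in the promoter sequence above, gained 44.2 points with BrafV600E in line 1 and 23.9 and 40.7 points with long culture in lines 1 and 3, by the authors' deposited tables. That tile and its neighbour also lie in the predicted gene Gm42163, and the 2 genes cannot be told apart there.

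Epha10, which encodes a receptor without an active kinase, gained in both BrafV600E tables. The tile chr4:124894601-124894800 inside the gene gained 31.0 points in line 1 and 30.9 points in line 3, by the authors' deposited tables. At the start 4 tiles gained from 21.0 to 39.6 points in line 1 and none was listed in line 3, where the other 2 gains lay beside the shared tile, by the authors' deposited tables. At 14 months line 3 gained from 27.7 to 41.0 points at 4 tiles, 3 of them at the start, whereas at 12 months line 1 changed by -54.9 points at 1 start tile, by the authors' deposited tables. Epha3 gained 53.3 points in line 1 and 48.8 points in line 3 at a shared tile inside the gene with BrafV600E, and the next 2 tiles gained 82.8 and 98.6 points in line 3, by the authors' deposited tables. In long culture that stretch had -56 points at 1 tile in line 1 and 87.5 points at another in line 3, by the authors' deposited tables. At the Epha3 start itself 2 tiles gained, 60.6 and 28.8 points, with BrafV600E in line 1 and in no other, by the authors' deposited tables.

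Epha8 mainly lost methylation with BrafV600E, with 1 loss of -27.7 points in line 1 and 5 losses from -23.7 to -76.9 points and 1 gain of 28.5 points in line 3, by the authors' deposited tables. The loss at chr4:136954401-136954600 was listed in both lines, at -27.7 and -54.7 points, by the authors' deposited tables. Epha6 lost inside the gene and gained at its start, with 29.5 and 32.4 points at 2 start tiles in line 3 with BrafV600E and 44.9 and 45.5 points at 14 months, by the authors' deposited tables. Epha2, a receptor that is common in epithelia, had 1 gain of 29.0 points in line 1 and 1 loss of -33.3 points in line 3 with BrafV600E, at different tiles, and -66.7 and 33.3 points at 14 months, by the authors' deposited tables. Epha4 had 1 tile upstream of its start, at -27.1 points with BrafV600E in line 3 and 66.9 points at 12 months in line 1, by the authors' deposited tables.

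Among the 5 EphB receptors, Ephb1 had 38 listings. With BrafV600E in line 3, 16 tiles spread along the gene lost methylation (mean -45.7 points, as low as -77.5), while the only 2 gains, of 24.9 and 28.7 points, lay within 2 kb of the start, by the authors' deposited tables. In line 1 there were 5 gains from 21.4 to 62.5 points and 1 loss of -100, by the authors' deposited tables. At 14 months a run of 6 tiles beside the start gained from 26.2 to 38.6 points (mean 33.4), and at 12 months the start tile chr9:102354201-102354400 gained 34.8 points against 38.6 points at 14 months, by the authors' deposited tables. Within 2 kb of the Ephb1 start, a wider window than the 1 kb used for counts near starts, tiles were gained in all 4 tables and lost in none. Within 1 kb of it, no tile was listed with BrafV600E in line 1. The losses lay further inside the gene.

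Ephb2, the crypt receptor, gained mostly inside the gene with BrafV600E. Its 4 gains in line 1, all inside, had a mean of 48.1 points, by the authors' deposited tables. Its 4 gains in line 3, 1 of them upstream of the start, had a mean of 48.3 points, by the authors' deposited tables. The tile chr4:136803801-136804000, far inside the gene, gained 53.1 points in line 1 and 45.03 points in line 3, by the authors' deposited tables. The tile upstream of the start gained 60 points in line 3, and a tile beyond the other end changed by -86.7 points there, by the authors' deposited tables. At 14 months 1 tile gained 59.3 points, and at 12 months none was listed at Ephb2, by the authors' deposited tables. Ephb3, its partner in the crypt, had 1 gain of 23.8 points upstream of the start with BrafV600E in line 3 and 2 gains of 32.2 and 41.7 points inside the gene at 14 months, by the authors' deposited tables. No tile at Ephb3 was listed in line 1.

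Ephb4, a receptor best known from veins, gained in both lines with BrafV600E. At a shared tile inside the gene (chr5:137373601-137373800) the gain was 43.0 points in both lines, and another tile inside the gene gained 60 points in line 1, by the authors' deposited tables. At 14 months the same tile changed by -59.9 points in line 3, by the authors' deposited tables. The tile chr5:137348801-137349000, upstream of the start, had 93.8 points with BrafV600E in line 3, 75 points at 12 months in line 1 and -60.1 points at 14 months in line 3, by the authors' deposited tables. Ephb6, another receptor without kinase activity, had 1 gain of 32.4 points with BrafV600E and 1 loss of -28.4 points at 12 months, at the same line 1 tile, by the authors' deposited tables.

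Of the class 3 semaphorins, which are secreted, all 7 tiles listed in line 1 with BrafV600E lost methylation, a gained share of 0% with an exact 95% interval of 0 to 41.0, against 67.5% of all tiles of that table. The 7 tiles belong to 2 genes that lie close together on chromosome 9, so they are not independent. Sema3f changed by -59.3 to -89.5 points at 4 tiles and Sema3b from -72.2 to -92.6 points at 3 tiles in line 1, by the authors' deposited tables. Both genes are candidate tumour suppressors in human lung cancer. In line 3 the only tile listed for them with BrafV600E was at Sema3f (chr9:107708801-107709000), at -22.0 points against -59.3 points in line 1, by the authors' deposited tables. At 14 months Sema3f gained 26.9 and 50 points at 2 other tiles, by the authors' deposited tables.

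Sema3e, whose product signals through plexin-D1, lost methylation at the tile chr5:14025601-14025800 inside its start by -72.4 points at 12 months and -32.8 points at 14 months, by the authors' deposited tables. With BrafV600E in line 3 the next tile changed by -72.3 points and a tile far inside gained 55.8 points, by the authors' deposited tables. Sema3d had opposite signs at 1 start tile in line 3, -80 points with BrafV600E and 50 points at 14 months, by the authors' deposited tables. Sema3a, the classic collapsing factor of growth cones, gained 41.7 points at 1 tile at 14 months, and Sema3g changed by -39.0 points at 1 tile there, by the authors' deposited tables.

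Class 6 semaphorins, which span the membrane, were listed mostly in line 3. Sema6d gained at 4 neighbouring tiles at its upstream start at 14 months, from 25.5 to 58.4 points (mean 44.1), and the tile at the start itself gained 63.0 points with BrafV600E in line 1, by the authors' deposited tables. Inside the gene, with BrafV600E in line 3, a run of 3 tiles gained from 29.9 to 43.6 points and 3 tiles elsewhere changed by -27.4 to -70.0 points, by the authors' deposited tables. Sema6b was listed only with BrafV600E in line 3, with 3 gains from 37.1 to 70 points and 4 losses from -21.5 to -55.2 points, by the authors' deposited tables. Sema6a changed by -68.8 points inside the gene in line 1 and gained 52.6 points at 1 end in line 3 with BrafV600E, by the authors' deposited tables. Sema6c gained 49.3 points beside its start with BrafV600E in line 3, and at 14 months had 2 gains of 21.8 and 34.3 points and 1 loss of -37.5 points, by the authors' deposited tables. None of the 4 was listed at 12 months.

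The Slit, Robo and netrin group held the most tiles. All 12 genes were listed in both BrafV600E tables, against 23.8% and 32.4% of all genes in lines 1 and 3, and 68.3% and 79.5% of genes over 200 kb; many of the 12 are long. Slit3, a secreted repellent read by Robo receptors, gained at its start in both lines with BrafV600E. In line 1 a run of 5 tiles (chr11:35121001-35122000) gained from 26.4 to 62.1 points (mean 42.7), and in line 3 a run of 3 of these tiles gained from 22.7 to 27.0 points, by the authors' deposited tables. The 3 shared start tiles were higher in line 1 than in line 3, at 37.5 against 22.7, 36.5 against 25.4 and 62.1 against 27.0 points, by the authors' deposited tables. At 14 months 4 tiles of the run gained from 22.7 to 54.1 points, but at 12 months line 1 changed by -25.9 and -33.2 points at 2 of them, by the authors' deposited tables. Inside the gene, 19 tiles lost methylation with BrafV600E in line 3, from -23.7 to -90 points (mean -50.9), against 1 loss of -33.9 points in line 1, by the authors' deposited tables. In that library pair Slit3 thus gained at its start and mostly lost along its body, where 2 tiles gained. Over the genome, 5543 of 8973 body tiles lost there too.

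Slit1 had 3 gains and 1 loss with BrafV600E in line 1 and 4 gains and 6 losses in line 3. At 14 months it gained at 6 tiles, of which 4 formed a run of 1000 bp with a mean of 43.5 points, by the authors' deposited tables. At 2 tiles of that run BrafV600E had changed by -38.0 and -36.3 points in line 3, by the authors' deposited tables. Among the Slit receptors, Robo1 gained at all 8 of its tiles in line 1 with BrafV600E (22.4 to 62.5 points, mean 42.7) and had 6 gains and 7 losses in line 3, by the authors' deposited tables. At its start, line 1 gained 39.4 and 36.5 points where line 3 changed by -25.5 and -20.8 points with BrafV600E, and line 3 gained 33.9 and 58.7 points at 14 months, by the authors' deposited tables. Inside the gene, 3 tiles gained in both lines with BrafV600E, among them chr16:72646001-72646200 at 58.5 and 78.4 points, by the authors' deposited tables. Robo2 had 3 tiles listed in both lines with BrafV600E, all with the same sign: gains of 44.6 and 65.0 points, gains of 47.1 and 32.9 points, and losses of -35.4 and -39.7 points, each for lines 1 and 3, by the authors' deposited tables. At its start, line 3 gained 66.9 and 36.8 points with BrafV600E and from 29.4 to 53.8 points at 3 tiles at 14 months, by the authors' deposited tables.

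Robo3, which governs midline crossing of axons, had a tile at its start listed in all 4 tables (chr9:37433001-37433200). It gained 37.9 points with BrafV600E in line 1, changed by -23.7 points in line 3, and gained 25.6 and 53.9 points at 12 and 14 months, by the authors' deposited tables. Only the BrafV600E library of line 3 lay below its control there. A second start tile (chr9:37434001-37434200) was listed in line 3 alone, at -87.9 points with BrafV600E and 80 points at 14 months, by the authors' deposited tables. Robo4, the endothelial member, changed by -75.7 points in line 1 and -40.8 points in line 3 with BrafV600E at different tiles, and gained 90.2 and 78.9 points at 14 months, by the authors' deposited tables.

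Ntn1, which encodes netrin-1, carried the longest run of all members: 15 tiles over 3400 bp (chr11:68384001-68387400) at the upper end of its span gained from 24.2 to 100 points at 14 months, with a mean of 60.5, by the authors' deposited tables. In line 1, 7 tiles of this stretch (chr11:68385801-68387400) gained from 29.6 to 75 points with BrafV600E (mean 46.9), and 1 gained 53.6 points at 12 months, by the authors' deposited tables. Elsewhere in Ntn1, line 1 had differences of -50 and -100 points with BrafV600E and -69.0 points at 12 months, by the authors' deposited tables. In line 3 with BrafV600E the stretch was mixed, with 58.6, -30.9 and -55.6 points at 3 tiles, and the rest of the gene had 2 gains and 6 losses, by the authors' deposited tables. Ntn4, a netrin of basement membranes, behaved the other way round between the comparisons. It gained from 25.7 to 35.4 points in line 1 and from 20.6 to 84.9 points in line 3 with BrafV600E, and changed by -22.8 and -58.1 points at 12 months and from -35.7 to -48.0 points at 14 months, by the authors' deposited tables. The tile chr10:93688201-93688400, 47 kb inside Ntn4, was listed in all 4 tables, at 35.4 and 36.0 points with BrafV600E and -58.1 and -37.0 points with long culture in lines 1 and 3, by the authors' deposited tables.

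Of the 4 netrin receptor genes, Dcc, Unc5a and Unc5d mostly lost methylation with BrafV600E in line 3. So did most tiles over the genome there, with losses at 17860 of all 29949 tiles and at 5543 of 8973 body tiles. Dcc had 7 losses and 0 gains with BrafV600E in line 3, from -23.9 to -88.9 points with a mean of -54.4, and in line 1 had 1 gain of 20.9 points and 1 loss of -80.5 points, by the authors' deposited tables. At 14 months Dcc had 3 gains from 33.4 to 77.8 points at or near 1 end of the gene and 1 loss of -54.6 points inside, by the authors' deposited tables. Unc5d had 5 losses from -38.9 to -53.8 points and 1 gain of 100 points with BrafV600E in line 3, and a run of 4 gains from 59.4 to 80.4 points at 1 end of the gene at 14 months, by the authors' deposited tables. At 12 months 1 tile of that run gained 52.5 points, and with BrafV600E in line 1 another gained 26.7 points, by the authors' deposited tables. Inside Unc5d there were also differences of -53.6 and -55.9 points at 12 months and 61.1 points with BrafV600E in line 1, by the authors' deposited tables. Unc5a changed by -88.9 points in line 1 and -90.9 points in line 3 at the same tile with BrafV600E (chr13:54966201-54966400, inside the gene), the largest loss listed in both lines among the members, by the authors' deposited tables. At the Unc5a start the tile upstream changed by -28.3 points with BrafV600E in line 1 and gained 42.7 points at 14 months, by the authors' deposited tables. Unc5b was listed only with BrafV600E, with 1 loss of -77.2 points in line 1 and 5 gains and 5 losses from -51.5 to 100 points in line 3, by the authors' deposited tables.

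**Figure D2:**
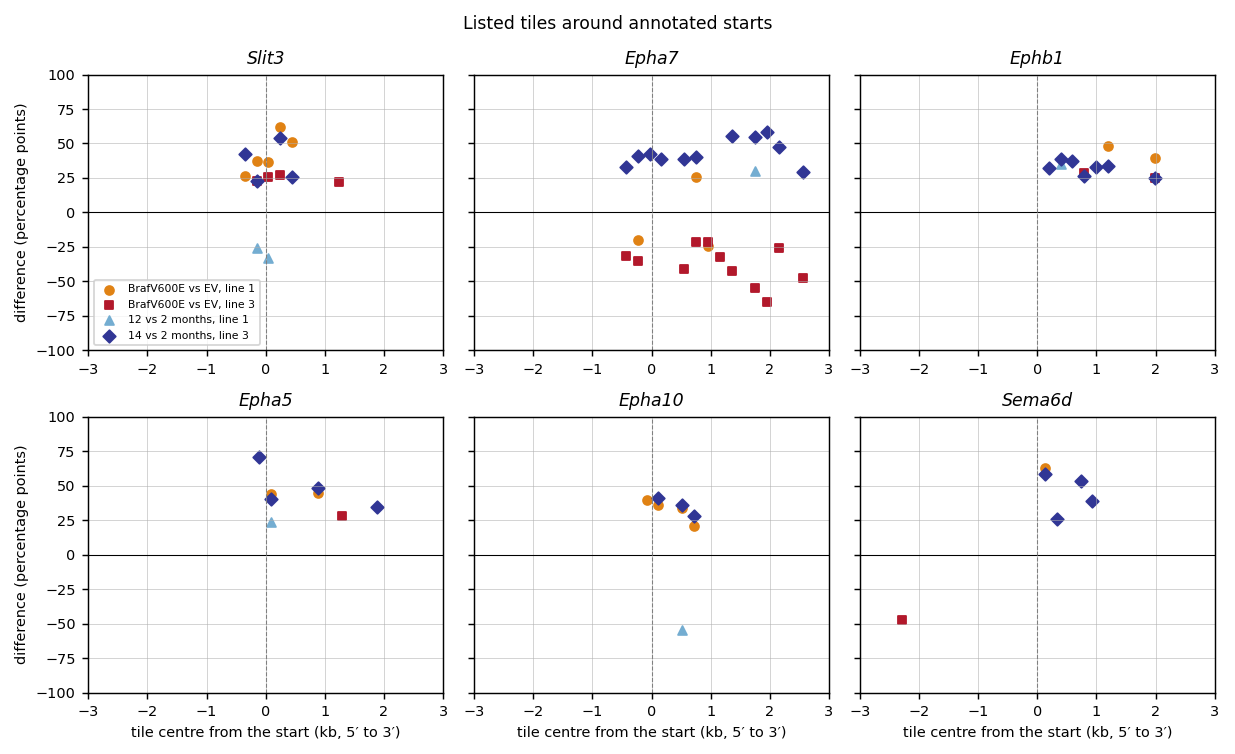
Methylation difference in percentage points of each listed tile (vertical axis) against the distance of its centre from the nearest RefSeq start in kb (horizontal axis) for 6 genes; symbols mark the 4 within-line comparisons. At Epha7 the line 3 points of the 2 comparisons lie on opposite sides of 0, with means of -38.0 and 43.7 points over the gene, while the points of Ephb1 within 2 kb of the start all lie above 0.

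Among the 37 genes with a RefSeq start, the share of tiles that gained was higher near starts than in gene bodies in all 4 tables, with overlapping intervals; over the genome it was higher near starts too. With these 37 genes, 20 of 24 tiles within 1 kb of a start gained with BrafV600E in line 1 (83.3%, exact 95% interval 62.6 to 95.3, against 78.0% of all listed tiles so placed), and 32 of 41 tiles in the gene body (78.0%, 62.4 to 89.4, against 66.4%). In line 3 these were 12 of 26 near starts (46.2%, 26.6 to 66.6, against 64.9%) and 45 of 121 in bodies (37.2%, 28.6 to 46.4, against 38.2%). At 12 months 3 of 9 near-start tiles gained (33.3%, 7.49 to 70.1, against 62.0%) and 3 of 18 body tiles (16.7%, 3.58 to 41.4, against 34.0%). At 14 months 39 of 42 near-start tiles gained (92.9%, 80.5 to 98.5, against 89.9%) and 36 of 49 body tiles (73.5%, 58.9 to 85.1, against 65.8%). For these 37 genes the genome-wide share lay inside the interval in each of the 8 cases. The 8 genes without a RefSeq start were counted apart. Within 1 kb of either end, their tiles gained in 9 of 10 cases with BrafV600E in line 1, 1 of 4 in line 3, 1 of 1 at 12 months and 16 of 16 at 14 months. No genome-wide share was computed for tiles near either end. Ntn1 held 7 of the 10 tiles with BrafV600E in line 1. At 14 months Ntn1 held 8 and Unc5d 4 of the 16, and such neighbouring tiles are not independent. In the bodies of the 8 genes, 4 of 15 tiles gained with BrafV600E in line 1 (26.7%, 7.79 to 55.1), an interval below the genome's 66.4%. Those 15 tiles include the 7 tiles of Sema3b and Sema3f described above, which all lost and are not independent. The other body counts were 8 of 32 with BrafV600E in line 3, against 38.2% of all body tiles, 1 of 6 at 12 months, against 34.0%, and 18 of 22 at 14 months, against 65.8%.

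**Figure D3:**
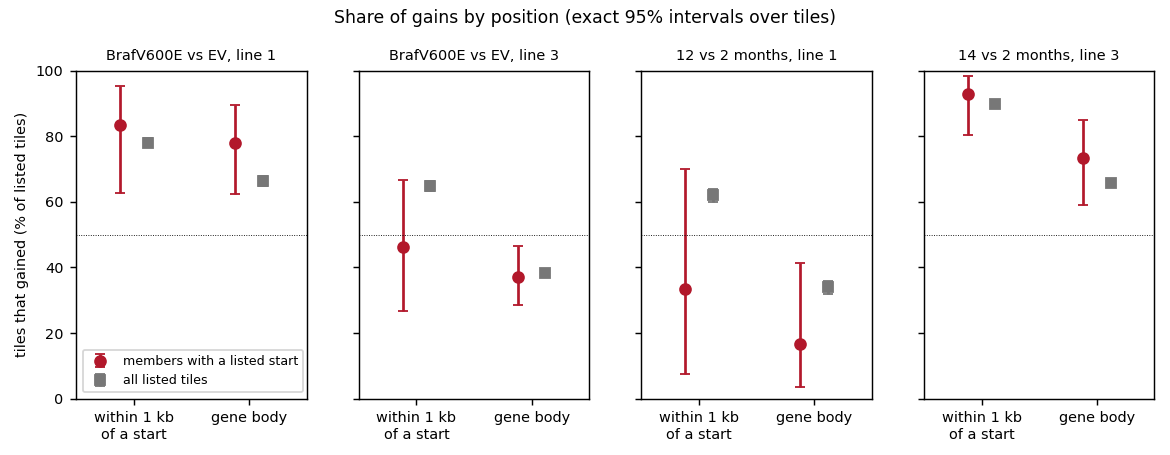
Share of listed tiles that gained (percent, with exact 95% intervals over tiles) within 1 kb of a RefSeq start and in gene bodies, for the 37 genes with a start (circles) and for all listed tiles (squares), in the 4 comparisons. The members' intervals include the genome-wide share in every panel, for example 92.9% against 89.9% near starts at 14 months.

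Counted by gene within 1 kb of a start, 13 of 37 members had gains only at 14 months (11.5% of 17492 genes with a start did) and 2 had losses only (2.61%): Sema3e and Ntn4. At 12 months 3 had gains only (4.74%) and 4 losses only (3.53%). With BrafV600E, 8 had gains only in line 1 (8.70%) and 2 losses only (3.18%), and in line 3 these were 7 (8.35%) and 6 (5.29%). Slit3 alone had gains only near its start in both lines with BrafV600E (1 of 37, against 3.62%), and 0 members had losses only in both (0.640%). With long culture Epha5, Ephb1 and Robo3 had gains only near the start in both lines (3 of 37, against 3.11%) and Sema3e had losses only (1 of 37, against 0.366%). At the starts of Robo1 and Robo3 the lines were opposite with BrafV600E, and at those of Epha10 and Slit3 they were opposite with long culture.

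**Figure D4:**
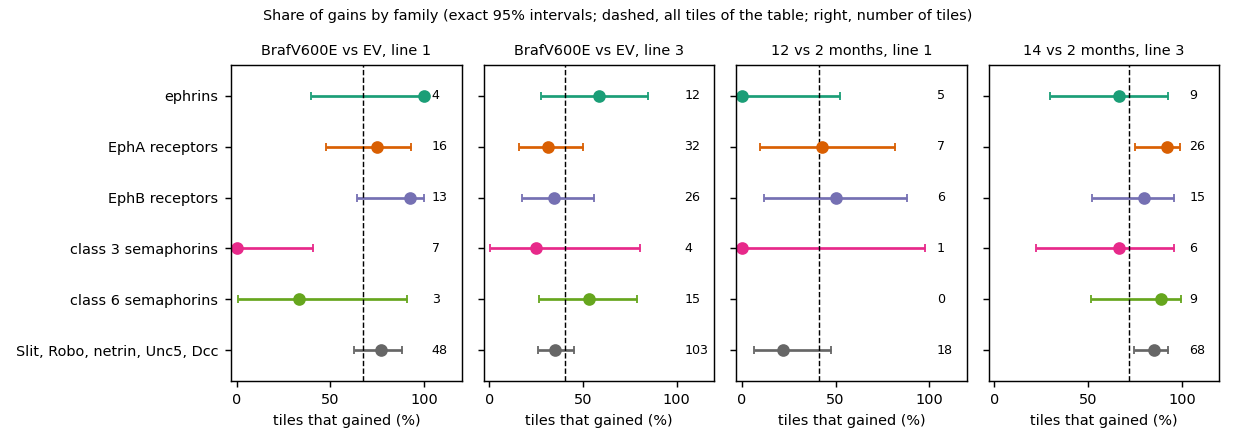
Share of listed tiles that gained (percent, circles, with exact 95% intervals over tiles) in each gene family and comparison; the dashed line is the share over all tiles of that table and the number at the right counts the family's tiles. The class 3 semaphorins in line 1 with BrafV600E stand at 0% of 7 tiles against 67.5% for the table. The Slit, Robo and netrin group at 14 months stands at 85.3% of 68 tiles against 71.9%. A single run of gains at Ntn1 holds 15 of these 68 tiles.

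By family, the Eph receptors gained at 24 of 29 tiles with BrafV600E in line 1 (82.8%) and at 19 of 58 in line 3 (32.8%). The Slit, Robo and netrin group gained at 37 of 48 (77.1%) and 36 of 103 (35.0%), the semaphorins at 1 of 10 (10%) and 9 of 19 (47.4%), and the ephrins at 4 of 4 (100%) and 7 of 12 (58.3%). At 14 months the Eph receptors gained at 36 of 41 tiles (87.8%), the semaphorins at 12 of 15 (80%), the Slit, Robo and netrin group at 58 of 68 (85.3%) and the ephrins at 6 of 9 (66.7%). At 12 months the shares were 6 of 13 (46.2%), 0 of 1, 4 of 18 (22.2%) and 0 of 5. Family intervals mostly overlap, and differences between families were not tested.

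Single tiles could be compared between the lines where both lines listed them. With BrafV600E, 34 member tiles were listed in both lines and 23 had the same sign (67.6%, exact 95% interval 49.5 to 82.6, against 73.9% of 5934 such tiles over the genome). Of these, 16 gained and 7 lost in both. The other 11 all gained in line 1 and lost in line 3, while over the genome 1122 tiles did so and 429 did the reverse. With long culture, 15 member tiles were shared and 9 had the same sign (60%, 32.3 to 83.7, against 68.5% of 3220). Of the 11 tiles that gained in line 1 and lost in line 3 with BrafV600E, 8 were also listed as gains in line 3 at 14 months (72.7%, 39.0 to 94.0, against 44.1% of the 1122 tiles over the genome). They lie at Epha7, Robo1, Robo3, Slit3, Ntn1 and Dcc.

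**Figure D5:**
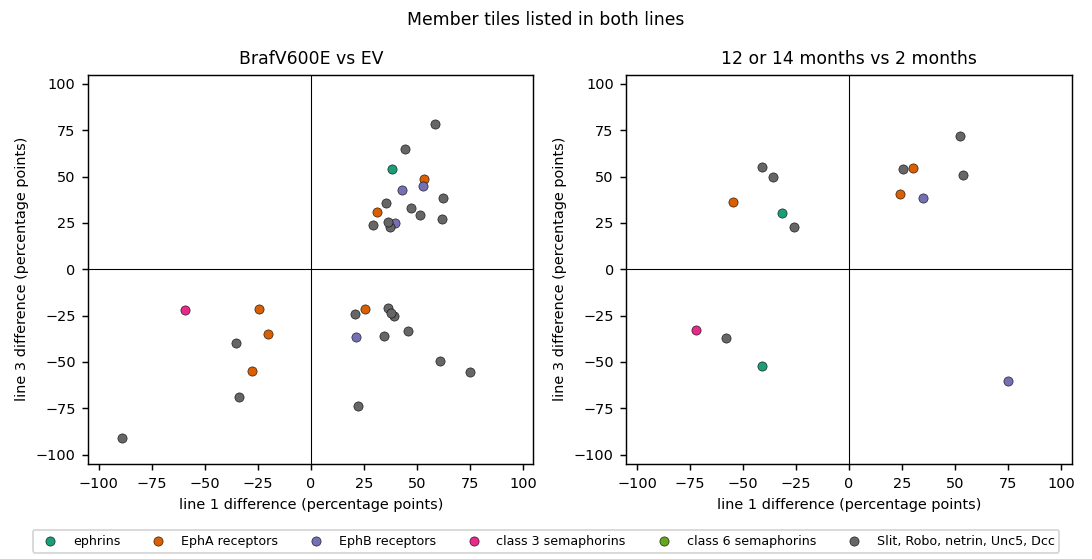
Methylation difference in percentage points in line 1 (horizontal) and line 3 (vertical) of each member tile listed in both lines, coloured by family, for BrafV600E (left, 34 tiles) and long culture (right, 15 tiles). With BrafV600E 16 tiles lie in the upper right quadrant, 7 in the lower left, 11 in the lower right and 0 in the upper left.

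Within line 3, 53 member tiles were listed both with BrafV600E and at 14 months, in tables that use different libraries of the same line. Of these, 34 had opposite signs (64.2%, exact 95% interval 49.8 to 76.9, against 48.1% of 6964 tiles over the genome), 30 as a loss with BrafV600E and a gain at 14 months. Without Epha7, which was left out after its values were seen, 25 of 44 had opposite signs (56.8%, 41.0 to 71.7). Within line 1, 10 tiles were listed in both comparisons and 8 had opposite signs, all as a gain with BrafV600E and a loss at 12 months, against 51.1% of 2384 tiles over the genome with opposite signs. The other 2 had the same sign (20%, exact 95% interval 2.52 to 55.6, against 48.9% over the genome). Opposite tiles over the genome leaned the same way as the members. In line 1, 928 of 1219 gained with BrafV600E and lost at 12 months. In line 3, 2419 of 3348 lost with BrafV600E and gained at 14 months. The direction at members thus went with that of all tiles, and the difference between lines was not tested.

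A further 39 genes of these pathways include plexins, neuropilins, other semaphorins and the RGM and FLRT families. With BrafV600E, 22 of them had a listed tile in line 1 (56.4%, against 23.8% of all genes) and 26 in line 3 (66.7%, against 32.4%). With long culture these were 13 (33.3%, against 16.6%) and 23 (59.0%, against 27.0%). Gene length was not allowed for in these counts. Of all genes over 200 kb, 68.3% in line 1 and 79.5% in line 3 were listed with BrafV600E. In line 1 with BrafV600E, 12 of the 39 genes had gains only (13.3% of all genes) and 2 losses only (6.00%). In line 3 these were 11 (12.1%) and 2 (11.5%). At 12 months 4 had gains only (5.74%) and 5 losses only (8.05%), and at 14 months 10 (14.8%) and 4 (6.70%). In both lines with BrafV600E, 6 had gains only (4.31% of all genes) and 0 had losses only (1.69%). Ntn3, a further netrin, had mean gains of 50.2 and 29.2 points in lines 1 and 3, Rgmb, a BMP co-receptor, 95.5 and 60.2, and Sema4g 53.8 and 66.7, per the authors' deposited tables. In lines 1 and 3 these values rest on 3 and 2 tiles for Ntn3, 1 and 2 for Rgmb, and 3 and 1 for Sema4g. With long culture 2 had gains only in both lines (3.03%) and 2 losses only (1.16%). Flrt2, a ligand of Unc5 receptors, had mean gains of 51.2 points over 5 tiles and 42.0 points over 7, and Plxnd1, the receptor of Sema3e, 50.1 and 41.2 points, in lines 1 and 3, by the authors' deposited tables. Srgap3, a Slit-Robo GTPase regulator, had means of -37.5 and -39.9 points and Sema7a of -22.7 and -29.0 points, by the authors' deposited tables.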

How the data were processed

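Reduced representation bisulfite libraries (50 bp single-end, about 10% phiX, per the labels' protocols) of 8 organoid samples were processed by the authors. FastQC 0.11.7, Trim Galore 0.4.4, Bismark 0.14.3, methylKit 1.7.4 and GRCm38 are named in the submitters' processing notes. Neither the coverage minimum nor the conversion rate is given in the sources used here. Per the file headers, the 8 deposited tables give 200 bp tiles with its q-value and p-value and the signed methylation difference in percentage points. Each pair of tables compares 1 library with 1 library, so the q-values describe those libraries. The p-values measure reads, not replicates, and the listing threshold can hide smaller changes.

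Tiles were joined to GRCm38.p6 RefSeq spans with 2 kb either side (Python 3.11.15, pandas 2.3.3). Gene calls were gains only, losses only or both; starts and strands came from the RefSeq promoter table. Intervals are exact Clopper-Pearson 95% intervals (scipy 1.17.1). The counting was tested on simulated data. Members and lists were chosen with earlier results of these data known. Named genes are those with 1 call in both lines, up to 12 per direction and comparison, the 2 with most tiles per family, tiles in all 4 comparisons and opposite calls; the remaining members are named to account for all 45. Partner genes were ranked alike, up to 3 per direction. Alternatives changed the window, thresholds, merging, minimum tiles, chromosomes, neighbouring genes and lines. Promoters without an entry, and tile sequences, were not used here.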

Additional observations from a re-analysis of the deposited data

Results flagged for a closer look

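Some tiles moved in opposite directions in the 2 lines, either with BrafV600E or with long culture. The difference between lines was not tested, since each line has 1 library per group, and listing both signs requires both tables to pass the authors' threshold. With BrafV600E there were 11 such tiles, all gained in line 1 and lost in line 3; the values that follow are line 3 minus line 1 in percentage points, computed from the authors' deposited tables. At Robo1 the tiles 72663001 and 72663401 at its start differed by -64.8 and -57.3 points and the tile 72283601 inside the gene by -96.0. Robo3 differed by -61.6 points at its start tile 37433001 and Epha7 by -46.7 at its start tile 28813801. Ntn1 differed by -131 points at tile 68386401 and Dcc by -44.8, each within 1 kb of a gene end. Inside genes, Ephb1 differed by -58.2 points at 101955001, Slit1 by -70.4 at 41738001, Slit3 by -78.9 at 35204401 and Unc5d by -111 at 29218001.

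With long culture, which was 12 months in line 1 and 14 months in line 3, 6 tiles were opposite. Line and culture time cannot be told apart at these tiles. Epha10 differed by 91.2 points at its start tile 124882201, Slit3 by 48.6 at its start tile 35121201 and by 85.7 at 35204401, Robo1 by 96.3 at 72998201 and Efna2 by 62.0 at 80190601, all higher in line 3. Ephb4 differed by -135 points at 137348801, higher in line 1. The Slit3 tile 35204401 was opposite between lines in both comparisons.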

How the results depend on the processing

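Of 76 recomputed values, 57 stayed within 1.5 times the count given in the report or inside the exact interval of the share given there. The other 19 moved beyond that, and with counts this small a step of 1 gene can fall on either side. The tally does not measure stability. Counts in 1 line can only equal or exceed those in both lines, and leaving out the X chromosome removes only Efnb1, with 1 listing. With a difference of at least 40 points, members gained in both lines with BrafV600E fell from 4 to 1 and with long culture from 2 to 0, members lost in both with BrafV600E went from 2 to 4, and the BrafV600E line 1 share of gained tiles went from 72.5% to 60.9%. Losses in both lines with BrafV600E were 0 with a 10 kb window, 0 with at least 2 tiles in each line and 4 with merged tiles. Gains in both with long culture were 0 at q under 0.001, 0 with at least 2 tiles, and 1 without tiles in other genes. Merging lowered the 14-month share from 84.2% to 73.7% by joining runs. Counted in 1 line alone, without replicate 1 or without replicate 3, gained members ranged from 9 to 13 with BrafV600E and from 5 to 19 with long culture, and lost members from 7 to 9 and from 6 to 13. No paired analysis was possible because no result comes from a test; the deposited differences are themselves within-line pairs, and only tiles past the threshold in both lines have 2 of them. The unknown depth limits every tile; 10 listings of members stood at exactly 100 points in either direction.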
